A study of Mus musculus with 101 samples.

Results

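Mouse embryonic stem cell lines whose names begin with B3A were compared with lines whose names begin with B3B. The members were the columns of the deposited region table that carry either prefix: 20 B3A and 19 B3B lines, 39 of the 85 columns in the table. Every line came from Diversity Outbred stock, an outbred mouse population bred from several inbred founder strains, and was kept in serum, LIF and 2i. LIF is a cytokine and 2i a pair of kinase inhibitors, which together keep the cells naive. All labels give the same cell type and culture, with no genotype, sex or passage. The prefix defines the groups, and no label explains it. The share of column names that end in N also differed between the groups, as given below. Methylation was read by enzymatic methyl sequencing of captured target regions in a study of how far such lines vary. Values are percent methylation of a region, with differences in percentage points, and coordinates are those of mm10. Read depth is unknown, since the tables give fractions alone.

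Naive embryonic stem cells grown in 2i hold little DNA methylation compared with cells grown in serum alone. Imprinted loci carry methylation on the copy inherited from 1 parent, set in the egg or sperm. In the embryo the KRAB zinc finger protein ZFP57 binds the methylated copy at a short motif, and the copy then keeps its methylation while the rest of the genome loses it. Cultured naive cells can lose imprints, and a lost imprint is not put back by ordinary culture or differentiation. The table names 11 categories of region, used here as the authors wrote them, and 1 of them is imprinting.

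Of 868 regions, 763 had a value in at least 80% of the columns of each prefix and were kept, and 105 were set aside. The imprinting category kept 22 of 23 regions; the other, near Rasgrf1 (chr9:89870292-89870657), had a value in 15 B3A and 16 B3B lines. A line lacked between 26 and 120 regions among B3A and between 30 and 173 among B3B. Column names ended in N in 16 of 20 B3A and 9 of 19 B3B lines, a letter that no label explains. The titles list 2 libraries for 4 B3A lines (B3A_7, B3A_21, B3A_36 and B3A_44) and 3 B3B lines (B3B_8, B3B_26 and B3B_31), and which library such a column holds is not stated. These 7 lines lacked 29 to 39 regions each, at the low end of the range. Nothing in the labels says that columns came from separate cultures, so a p-value here reflects the spread between columns, which may be technical. Regions at Nanog, Zfp42 and Tbx3, genes of the naive state, had means of at most 1.37% under either prefix.

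Promoters that lie within or, for Nap1l5, partly within 4 of the regions described below are shown. The choice was limited to regions with a promoter in the RefSeq set, which Peg13, Tnfrsf1a, Grb10 and Nespas lack. The first 3 lie at imprinted loci where the mean of B3A lines was the higher, and the last at a gene of the germline category where it was the lower. None of these regions passed in the main fits to the 39 lines. The promoter sequences come from RefSeq (build GRCm38.p6, which shares mm10 coordinates), run 5′ to 3′ on the gene's strand, and have in capitals the CpGs that the deposited CpG table measures.

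Zdbf2 promoter, chr1:63200108-63200407, plus strand: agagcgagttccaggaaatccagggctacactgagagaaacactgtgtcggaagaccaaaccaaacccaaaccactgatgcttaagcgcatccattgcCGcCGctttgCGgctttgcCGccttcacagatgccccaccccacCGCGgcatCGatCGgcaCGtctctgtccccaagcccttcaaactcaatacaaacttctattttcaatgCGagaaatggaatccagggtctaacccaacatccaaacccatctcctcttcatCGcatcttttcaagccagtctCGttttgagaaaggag

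Plagl1 promoter, chr10:13090582-13090881, plus strand: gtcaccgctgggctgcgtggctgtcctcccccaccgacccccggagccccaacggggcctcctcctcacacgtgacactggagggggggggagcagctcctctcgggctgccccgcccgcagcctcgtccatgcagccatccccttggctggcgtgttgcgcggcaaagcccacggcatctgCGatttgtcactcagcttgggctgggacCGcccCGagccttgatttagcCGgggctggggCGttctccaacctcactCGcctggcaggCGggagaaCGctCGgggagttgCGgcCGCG

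Nap1l5 promoter, chr6:58907077-58907376, minus strand: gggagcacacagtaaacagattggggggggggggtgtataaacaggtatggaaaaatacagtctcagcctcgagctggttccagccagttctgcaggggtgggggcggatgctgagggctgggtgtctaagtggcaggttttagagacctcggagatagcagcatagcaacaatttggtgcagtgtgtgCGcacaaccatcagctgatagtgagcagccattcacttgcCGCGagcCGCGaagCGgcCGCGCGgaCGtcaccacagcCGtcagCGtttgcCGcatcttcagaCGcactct

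Naa11 promoter, chr5:97392281-97392580, minus strand: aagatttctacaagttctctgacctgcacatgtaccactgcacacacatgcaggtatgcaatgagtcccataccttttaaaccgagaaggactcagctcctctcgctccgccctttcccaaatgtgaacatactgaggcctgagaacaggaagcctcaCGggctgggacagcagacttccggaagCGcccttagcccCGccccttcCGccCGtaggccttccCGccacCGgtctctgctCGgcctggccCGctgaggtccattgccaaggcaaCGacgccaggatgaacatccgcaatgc

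At the 12 measured CpGs of the Zdbf2 promoter the mean was 11.1% ± 13 (SD, n = 20) for B3A lines and 7.65% ± 11.6 (SD, n = 19) for B3B lines, and all 12 CpGs had the higher mean in B3A. The 12 CpGs of Plagl1 had 14.7% ± 10.7 in B3A and 12.1% ± 11.3 in B3B, with all 12 higher in B3A. The 14 CpGs of Nap1l5 had 12.7% ± 9.74 and 9.76% ± 10.6, with all 14 higher in B3A. The 10 CpGs of Naa11 had 3.08% ± 2.51 in B3A and 7.27% ± 8.19 in B3B, and 0 of 10 were higher in B3A. Neighbouring CpGs share reads and lines, so these counts describe each promoter as 1 locus. The motif TGCCGC, the hexamer that ZFP57 binds, was searched on both strands with its reverse complement GCGGCA; the Zdbf2 promoter holds 3 copies, Nap1l5 2, Plagl1 1 and Naa11 0. Of 32817 RefSeq promoters of the same 300 bases, 11.6% hold the hexamer, and of the 14 promoters that overlap a kept imprinting region, 9 do. A match is a match of letters and not a measured binding site.

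The lines of both prefixes spread over most of the range from near 0 to 30%, and their overall levels overlapped widely. The mean over the kept regions ran from 3.03% (B3A_29) to 29.1% (B3A_37) in B3A lines, with a median of 10.8%. In B3B lines it ran from 4.28% (B3B_27) to 42.2% (B3B_8), with a median of 14.7%. B3B_8 and B3B_44, at 42.2% and 40.2%, stood above the next B3B line at 24.2% and above every B3A line. The group means were 12.8% ± 7.72 (SD, n = 20) and 15.8% ± 10.5 (SD, n = 19), a difference of -3.01 points between B3A and B3B (two-sided permutation test, 100000 resamples, p = 0.316). Without B3B_8 and B3B_44 the B3B mean was 12.8% ± 5.77 (SD, n = 17) and the difference -0.0220 points (p = 0.990).

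**Figure D1:**
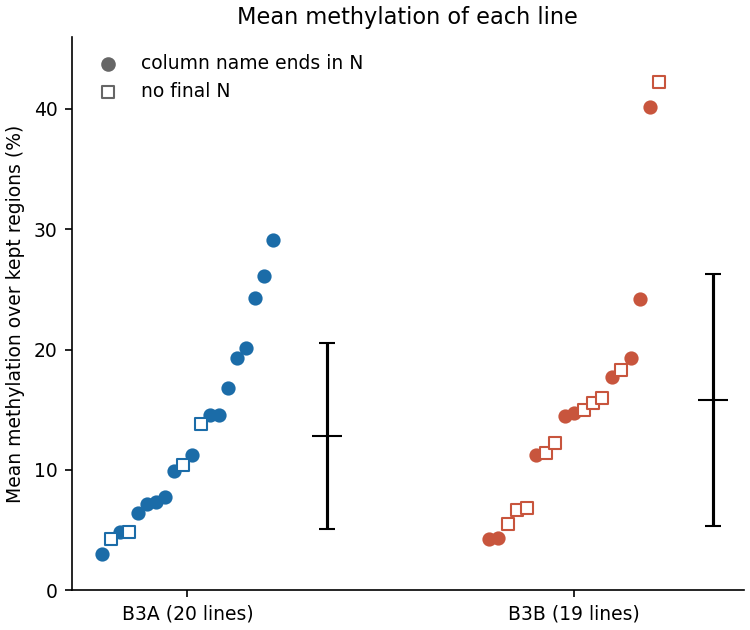
Mean methylation over the kept regions for each line, in percent, with 1 point per line in order of its value, filled where the column name ends in N. Horizontal marks and bars are the mean and SD of each prefix. Points of both prefixes overlap between 4.28% and 24.2%, and points from 24.3% to 29.1% are all B3A. B3B_8 and B3B_44 sit above all others at 42.2% and 40.2%.

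Among columns with a final N the means were 13.9% ± 8.04 (SD, n = 16) for B3A and 16.7% ± 11 (SD, n = 9) for B3B (exact permutation test, two-sided p = 0.468). Among columns without it they were 8.32% ± 4.56 (SD, n = 4) and 15% ± 10.5 (SD, n = 10) (exact permutation test, two-sided p = 0.156). The gap between prefixes was wider without the N by 3.83 points, and this difference of differences had a permutation p of 0.563. The spread of lines about their prefix median was lower in B3A by a mean of 0.727 points in absolute deviation (permutation p = 0.733), a difference that the test did not separate from 0.

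Region by region, the B3A mean was below the B3B mean at 683 of 763 regions and above it at 80, with a median difference of -2.41 points. Limma was fitted to log2 odds, the log2 of the methylated over the unmethylated fraction with 0.01 added to each, so that a difference of 1 is a factor of 2 in the odds. It called 0 of 763 regions at an adjusted p under 0.05 (0% of regions tested), with 33 at an unadjusted p under 0.05: 32 lower in B3A (4.19%) and 1 higher (0.131%). This direction did not hold without the 2 high B3B lines. Without B3B_8 and B3B_44 the B3A mean was higher at 392 regions and lower at 371, with a median difference of 0.0157 points. The SD over lines was larger in B3B at 679 of 763 regions with those lines and at 126 without them.

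The difference grew with the level of the region. Outside the imprinting category, the 241 regions with a mean under 5% over the 39 lines had a median difference of -0.234 points, the 147 regions between 10% and 20% one of -3.66, and the 97 regions at 30% or above one of -6.84. Of those 97 regions, 97 had the lower mean in B3A. These values by level, and those below for chromosome X, were taken over all 39 lines. Without B3B_8 and B3B_44, 371 of the 741 regions outside the imprinting category were higher in B3A and 370 lower, with a median of 0.000376 points. All 11 kept regions on chromosome X, among them Tex11 and Taf7l, which act in male germ cells, had the lower mean in B3A. Their median difference was -5.24 points at a median level of 24%. This was close to regions of like level: of the 145 between 20% and 30% outside the imprinting category, 141 were lower in B3A, with a median of -5.31.

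**Figure D2:**
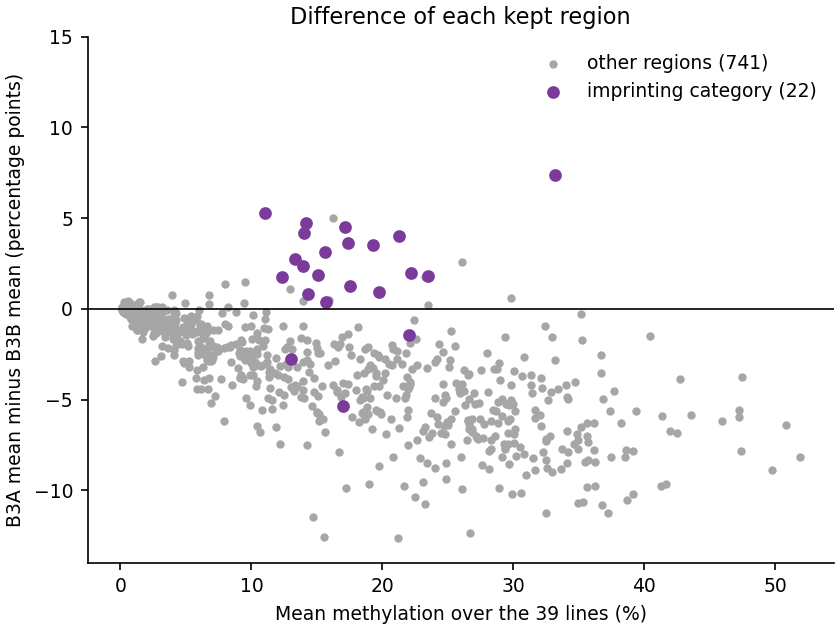
Difference between the B3A and B3B means of each kept region in percentage points, against the mean of the region over the 39 lines in percent. The grey points of other categories fan out below 0 as the level rises, while 19 of 22 imprinting regions, in purple, lie above 0.

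Regions with the largest negative differences belonged to several categories. At Acly, which encodes the enzyme that makes cytosolic acetyl-CoA from citrate (B6J vs 129 category, chr11:100493701-100494238), B3A lines had 4.30% to 43.7% with a median of 12.2%, and B3B lines 4.60% to 71.5% with a median of 23.2%. The ranges overlapped and the means were 15% ± 10.5 (SD, n = 20) and 27.7% ± 19.5 (SD, n = 19), a difference of -12.7 points (limma adjusted p = 0.668). Lhx9, a LIM homeobox transcription factor of gonad and brain, differed by -12.6 points at 1 region (chr1:138842376-138843259) and by -9.90 at its other. Rasgef1c, a gene of the Ras exchange factor family, had a difference of -12.4 points, and P2ry12, the ADP receptor of platelets and microglia, one of -11.3. Atp2b2, a calcium pump of the plasma membrane, had a difference of -11.2 points. None of these passed the test, and each had its highest line in B3B except for the second Lhx9 region, whose highest lines had 57.2% in B3A and 57.0% in B3B.

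The smallest unadjusted p-values of the fit to the values as deposited were all for regions lower in B3A. At Naa11, which encodes an N-terminal acetyltransferase made in testis (germline_Dahlet category, chr5:97392129-97392629), B3A lines had 1.07% to 16.4% with a median of 8.03%, and B3B lines 5.0% to 55.5% with a median of 10.9%. The means were 7.33% ± 4.10 (SD, n = 20) and 14.1% ± 10.9 (SD, n = 19), a log2 odds difference of -0.995 (SE 0.291, unadjusted p = 0.00147, limma adjusted p = 0.491). Without B3B_8 and B3B_44 the B3B mean was 11.2%. At Tnfrsf1a, the main receptor for tumour necrosis factor (aging_Meer category, chr6:125360138-125360638), B3A lines had 1.0% to 28.7% with a median of 6.60%, and B3B lines 3.77% to 58.0% with a median of 17%. The means were 9.12% ± 7.83 (SD, n = 20) and 20.6% ± 15.4 (SD, n = 19), a log2 odds difference of -1.31 (SE 0.406, limma adjusted p = 0.491), and B3B had 17.3% without the 2 high lines. Among columns with a final N the Tnfrsf1a means were 9.04% and 24.9%, and among columns without it 9.41% and 16.7%. The other 8 were Fetub, a secreted protease inhibitor of the liver; Smpd1, acid sphingomyelinase; 1700029P11Rik; Acly; Lrp1, a lipoprotein receptor; Morc1, which silences transposons in male germ cells; Cntnap3, a neurexin-family adhesion gene; and Lhx9. Low levels were common here: Smpd1 had 1.14% in B3A and 2.31% in B3B, Morc1 1.27% and 4.15%, Cntnap3 0.737% and 1.40%, and Fetub 2.73% and 6.77%.

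Lines were next compared at a common overall level. When the mean of each line was subtracted from its regions, limma again called 0 of 763 regions (0%), with 18 higher (2.36%) and 20 lower (2.62%) in B3A at an unadjusted p under 0.05. This subtraction removes the same number of points from low and high regions: of the 241 regions under 5%, 47 were positive as deposited and 236 after it, with a median of 2.62 points, so that low regions take a positive sign by construction. The fit that took the line mean as a covariate on the log2 odds scale had a median difference of -0.014 over all regions. It too called 0 of 763 regions (0%), with a smallest adjusted p of 0.0829. At an unadjusted p under 0.05 there were 47 regions higher in B3A (6.16%) and 39 lower (5.11%).

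Over all 39 lines the imprinting regions went the other way from the rest. Without B3B_8 and B3B_44 the rest had no direction, with 371 regions higher and 370 lower in B3A, and 21 of 22 imprinting regions were higher. In columns without a final N and in lines with 2 titles, given below, imprinting regions and the rest were both mostly lower in B3A as deposited. As deposited, 19 of 22 had the higher mean in B3A, with a median difference of 2.16 points against -2.53 over the other 741 regions, although 0 of 22 had an unadjusted p under 0.05 in that fit. With the line mean as a covariate, 21 of 22 were higher in B3A, 15 of them at an unadjusted p under 0.05 and 0 lower, with a median log2 odds difference of 0.664. Outside the category the same counts were 32 higher and 39 lower among 741 regions. No imprinting region passed at an adjusted p under 0.05. The 22 regions vary together from line to line, so they are not 22 separate observations.

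**Figure D3:**
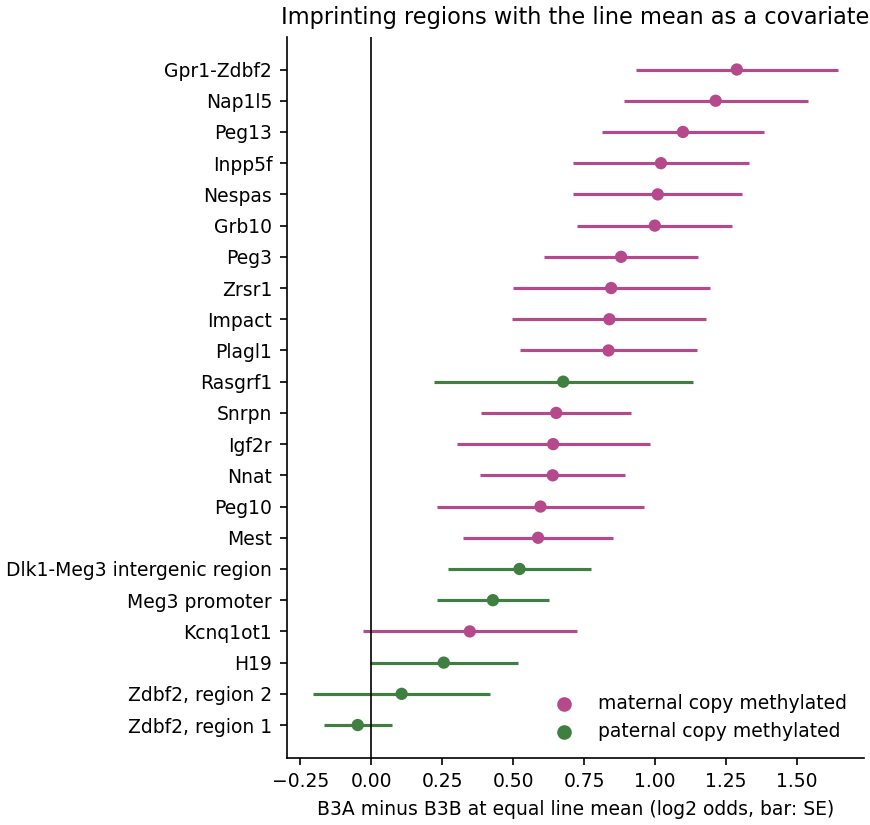
Difference between B3A and B3B at equal line mean for the 22 kept imprinting regions, in log2 odds, from the limma fit with the line mean as a covariate; bars are 1 SE. Gpr1-Zdbf2 has the highest value at 1.29 and the first Zdbf2 region the lowest at -0.05.

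The maternally methylated loci held the largest differences. At Peg13, a noncoding RNA within an intron of Trappc9 (chr15:72809272-72809627), B3A lines had 6.71% to 82.9% with a median of 41.2%, and B3B lines 0.672% to 84.4% with a median of 24.5%. The ranges overlapped almost fully, and the means were 36.8% ± 20.3 (SD, n = 20) and 29.4% ± 21.5 (SD, n = 19). The covariate fit gave 1.10 (SE 0.286, limma adjusted p = 0.0829). At Gpr1-Zdbf2 (chr1:63199879-63200976), where a paternal transcript switches on the zinc finger gene Zdbf2, B3A lines had 0% to 48.6% with a median of 7.23%, and B3B lines 0.0731% to 38.1% with a median of 3.75%. The means were 13.6% ± 15 (SD, n = 20) and 8.33% ± 10.7 (SD, n = 19), and the covariate fit gave 1.29 (SE 0.355, limma adjusted p = 0.0874).

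Nap1l5, an intronless gene within Herc3, was covered by an imprinting region (chr6:58906800-58907200) and by an overlapping aging_Meer region (chr6:58906528-58907028). The imprinting region had 1.41% to 35.3% with a median of 18.8% in B3A, and 0.266% to 38.4% with a median of 11.1% in B3B. Its means were 16.5% ± 11.8 (SD, n = 20) and 11.8% ± 11.3 (SD, n = 19), and the covariate fit gave 1.21 (SE 0.324, limma adjusted p = 0.0874) there and 1.28 (SE 0.326, adjusted p = 0.0829) at the overlapping region. Both describe the same stretch of DNA. Grb10, an adaptor protein that restrains growth, had 17.1% ± 12.6 in B3A and 14% ± 13.2 in B3B. Nespas, the antisense transcript of the Gnas cluster, had 19.4% ± 13.1 and 14.9% ± 13.1, and Inpp5f, a phosphoinositide phosphatase, 16% ± 12.4 and 11.8% ± 11.2. Peg3, a zinc finger gene expressed from the paternal copy, had 19.2% ± 11.6 and 15.6% ± 11.6 (each SD, n = 20 and 19). In the covariate fit these 4 had differences between 0.88 and 1.02, with adjusted p-values between 0.0874 and 0.134.

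The other maternally methylated loci were Zrsr1, Impact, Plagl1, Snrpn, Igf2r, Nnat, Peg10, Mest and Kcnq1ot1. Their covariate differences ran from 0.84 at Zrsr1, a splicing-factor gene in an intron of Commd1, down to 0.35 at Kcnq1ot1, the long noncoding RNA of the Kcnq1 domain. All 16 maternally methylated regions had the higher B3A mean as deposited and in the covariate fit, 13 of them at an unadjusted p under 0.05. Of the 6 regions where the paternal copy is the methylated one, in sperm or only after fertilization, 3 had the higher mean in B3A as deposited. In the covariate fit 5 of these 6 were higher in B3A, 2 of them at an unadjusted p under 0.05. H19, whose upstream region controls H19 and Igf2 and is methylated in sperm, had 21.3% ± 13 and 22.8% ± 14.7 and a covariate difference of 0.26. The Dlk1-Meg3 intergenic region had 24.4% ± 11.1 and 22.6% ± 12.9 with 0.52, and the Rasgrf1 region 21.1% ± 13.8 (n = 18) and 17.6% ± 15.3 (n = 18) with 0.68. The first Zdbf2 region (chr1:63260549-63261295), which is methylated on the paternal copy after fertilization, had 14.3% ± 9.85 and 19.7% ± 17.9 with -0.05. Whether maternal and paternal imprints differed in their response to the prefix was not tested.

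Single CpGs showed the same direction. They lie in the same regions and were read in the same lines, so they are not separate observations. Of 937 CpGs measured inside kept imprinting regions, 805 (85.9%) had the higher mean in B3A, against 1754 of 6980 other CpGs (25.1%). With the line mean as a covariate the shares were 96.5% and 42.4%. At Gpr1-Zdbf2 all 29 CpGs were higher in B3A, with means of 8.16% to 18% in B3A and 5.93% to 10.6% in B3B. At Tnfrsf1a 0 of 7 CpGs were higher in B3A, with means of 5.4% to 11.8% in B3A and 12.2% to 25.1% in B3B.

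**Figure D4:**
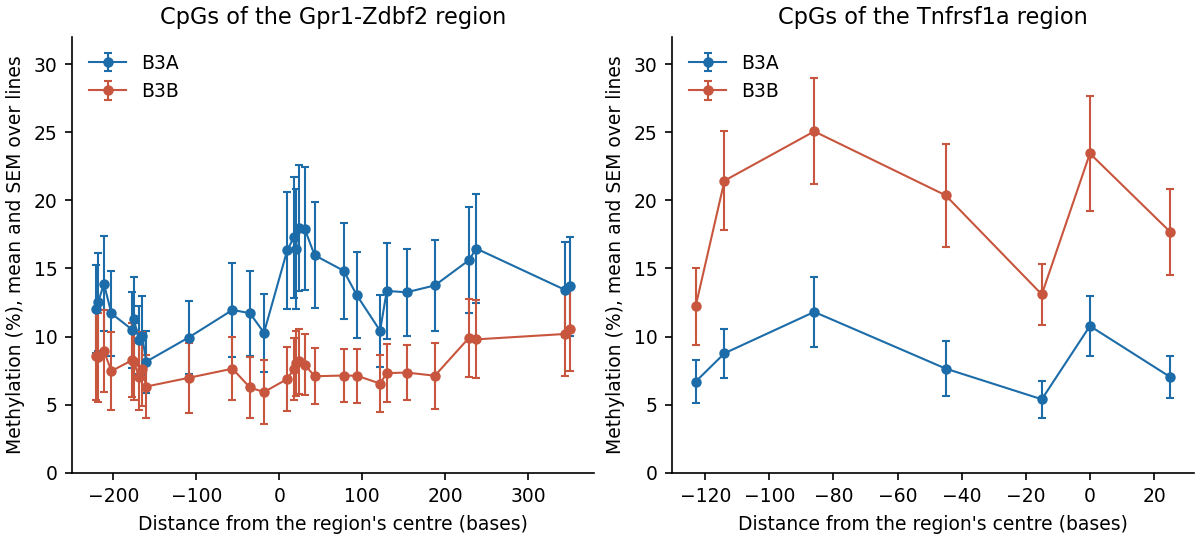
Mean methylation in percent of each measured CpG in the Gpr1-Zdbf2 and Tnfrsf1a regions, with the SEM over 20 B3A and 19 B3B lines, against its distance in bases from the centre of the region. B3A lies above B3B at all 29 CpGs of Gpr1-Zdbf2 and below it at all 7 of Tnfrsf1a.

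Line by line, the imprinting regions of most B3A lines stood above their other regions, and those of B3B lines did so by less on average. The mean of the 22 imprinting regions minus the mean of the other 741 ran from -4.23 to 14.8 points in B3A with a median of 5.79, and was above 0 in 16 of 20 lines. In B3B it ran from -12.8 (B3B_15) to 8.67 points with a median of 0.441, and was above 0 in 11 of 19. The means were 5.78 ± 5.87 (SD, n = 20) and 0.560 ± 4.81 (SD, n = 19) points, a difference of 5.22 given without a test. The spread within each prefix was about as large as the difference. Without B3B_8 and B3B_44 the difference was 5.77 points.

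This pattern moved with the final N and with the lines that have 2 titles. Among columns with the N, the imprinting regions stood above the others by 6.58 ± 6.12 points (SD, n = 16) in B3A and by -1.12 ± 5.03 (SD, n = 9) in B3B. Among columns without it the values were 2.57 ± 3.68 (SD, n = 4) and 2.07 ± 4.30 (SD, n = 10), a difference of 0.496 points. In the columns without N the B3A mean was the higher at 1 of 22 imprinting regions as deposited, and at 19 of 22 with the line mean as a covariate, 2 of them at an unadjusted p under 0.05. In the columns with N these counts were 20, 21 and 15. Of the 16 B3A lines with at most 1 title, 15 had imprinting regions above their other regions, with a mean of 6.85 ± 4.67 points (SD, n = 16), against 8 of 16 such B3B lines with -0.107 ± 4.78 (SD, n = 16). Of the 4 B3A lines with 2 titles, B3A_7 alone was above 0, at 14.7 points, and the mean was 1.49 ± 8.86 (SD, n = 4), whereas all 3 such B3B lines were above 0, with a mean of 4.12 ± 3.79 (SD, n = 3). Among these 7 lines the B3A mean was the higher at 0 of 22 imprinting regions as deposited, with a median difference of -13.7 points, against -10.2 over the other regions. The part of the letter N and of the second library in these values was not tested.

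**Figure D5:**
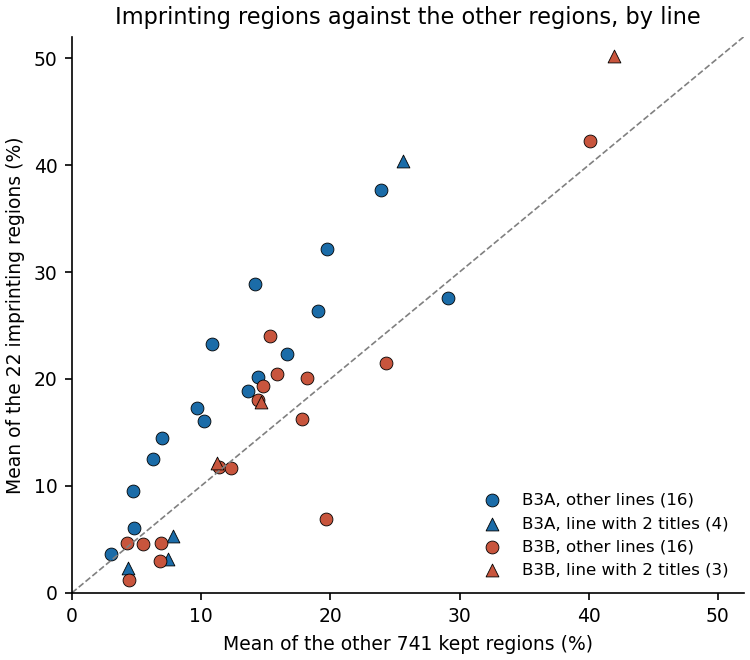
Mean of the 22 imprinting regions against the mean of the other kept regions for each line, both in percent, with triangles for lines that have 2 titles; the dashed line marks equal values. Of 20 B3A lines 16 lie above the line, and B3A_44, B3A_21, B3A_36 and B3A_37 lie below it.

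Leaving out the 7 lines with 2 titles changed the calls. The covariate fit on 16 lines of each prefix then called 19 of 758 regions, 14 higher and 5 lower in B3A. The 14 comprised 10 imprinting regions, among them Peg13, Nap1l5, Nespas, Peg3, Inpp5f, Grb10, Plagl1 and Snrpn, and 4 others at Nap1l5, Meg3, Gnas and the interferon gene Ifna13. Of these others, the Nap1l5 region overlaps an imprinting region among the 10, and the Meg3 region lies within another, so neither is a separate locus. The 5 lower in B3A lay at Smpd1, Naa11, Fetub, the transcription factor gene Zfhx3 and Epb41l4aos; the last pair, with Ifna13 and the Gnas and Meg3 regions outside the imprinting category, were named after their values were seen. Single lines also decided whether any region passed: the covariate fit called 4 regions without B3A_37, 7 without B3A_44 and 7 without B3B_26, and 0 on leaving out any of the other 36 lines in turn.

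In the other categories regions at an unadjusted p under 0.05 in the covariate fit fell on both sides. Over all regions the shares were 6.16% higher and 5.11% lower, and 15 of the 47 higher regions belong to the imprinting category. Outside that category there were 32 higher and 39 lower among 741 regions. The 110 germline_Dahlet regions, promoters of genes of the germline, had 3 higher and 5 lower, and a median difference as deposited of -2.76 points. The 138 Cancer regions had 4 and 9, the 218 aging_Meer regions 9 and 9, the 126 aging_Young regions 8 and 6, the 64 B6J vs 129 regions 3 and 5, the 42 2-cell stage regions 5 and 2, and the 21 Lineage-associated regions 0 and 3. The aging_shared, germline_GGD and nPSC-associated categories, with 11, 8 and 3 regions, had none in either direction.

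No region of the gene lists passed the test. Of 28 regions at listed germline genes 27 had the lower mean in B3A, against 683 of 763 over all regions. Their median was -2.27 points, close to -2.41 over all regions. At Dpep3, a dipeptidase of testis, the means were 28.6% ± 20.4 and 37.6% ± 21.7. Asz1 and Fkbp6, genes of the piRNA pathway and meiosis, had differences of -4.39 and -5.38 points, and Timm8a2, a mitochondrial import gene, one of -5.69. Of 5 regions at innate immune genes, Tnfrsf1a had the lowest covariate p, 0.00214. Tlr2, a receptor for bacterial lipoproteins, had 18.4% ± 14.4 and 27.9% ± 21.4. Casp8, a caspase of death-receptor signalling, had 30.7% ± 19.7 and 35.3% ± 22.8, and the Irak3 regions, at a brake on Toll-like receptor signalling, lay between 2.29% and 3.46% under both prefixes. The 2 regions at genes of the methylation machinery, Tet3 and the Aire region that also overlaps Dnmt3l, differed by -5.56 and -4.92 points, with covariate differences of 0.06 and -0.01. Of 10 regions at lineage genes 10 had the lower B3A mean, near the share of 683 of 763 over all regions. Their median was -1.74 points, against -2.41 over all regions. Pax6, a neural transcription factor, had 44.3% ± 19.3 and 50.2% ± 21.9. Without B3B_8 and B3B_44 the B3B means were 22.2% at Tlr2, 29.6% at Casp8, 45.7% at Tet3, 18.8% at the Aire region and 45.2% at Pax6. The B3A means there were 18.4%, 30.7%, 44.6%, 18.7% and 44.3%, so Casp8 changed sign. The region at 4933404O12Rik had 8.89% ± 7.21 and 13.8% ± 15. Of 7 regions at listed imprinted genes outside the imprinting category, 3 had the higher mean in B3A, with a median of -0.999 points. In the covariate fit 3 were higher and 1 lower at an unadjusted p under 0.05. The Nap1l5 region and the Meg3 regions chr12:109540054-109541813 and chr12:109542341-109543039 overlap kept imprinting regions and are not separate loci. Nap1l5 and the latter Meg3 region were among those 3 higher regions. Magel2, an imprinted gene of the Prader-Willi domain, had 17.6% ± 15.1 (n = 20) and 28% ± 18 (n = 18) with a covariate difference of -0.64. The Cancer region at Meg3 had a difference of -5.94 points, opposite in sign to the 0.393 points of the imprinting region at the Meg3 promoter.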

How the data were processed

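Enzymatic methyl sequencing libraries of 39 lines were compared through 2 tables that the authors deposited: methylation fractions averaged over 868 regions, and fractions for 7917 CpGs. Trim Galore 0.6.4, Bismark, Bowtie2 and mm10 are named in the submitters' processing notes without roles or settings. The names of the deposited tables give a coverage filter of 10. The region fractions, with empty cells written as text in the deposited table, were multiplied by 100; depth is unknown, so no counting interval was computed.

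Columns were assigned by prefix. Regions with values in 80% of each prefix's columns were fitted with limma 3.58.1 (R 4.3.3): log2 odds with an offset of 0.01, fractions minus the line mean over 636 regions complete in the 39 lines, and log2 odds with the line mean as a covariate. P-values were adjusted by Benjamini-Hochberg over all regions, with a threshold of 0.05. The first and the covariate fit were also run on simulated regions. These shared a level per line but otherwise had independent noise, unlike imprinting regions that vary together, and no result here rests on that run. Line means were compared by two-sided permutation (SciPy 1.17.1, 100000 resamples; exact where a group had under 10 lines). The members, gene lists and rules were chosen with earlier results of these data known.

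Regions named were the 10 with the smallest p in the first and in the covariate fit, the 5 largest differences each way as deposited and after subtraction of the line mean, 3 per gene list, 5 genes chosen from earlier results and the imprinting regions. Genes came from the RefSeq table of GRCm38.p6; a region near a gene lies within 5000 bases. Alternatives covered column subsets, the final N, presence, scale, offset, centring, variance moderation, CpGs and leaving out each line. Leaving out B3B_8 and B3B_44 was added after seeing the data.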

Additional observations from a re-analysis of the deposited data

Results flagged for a closer look

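Lines grouped by prefix and final N were searched for a line far from the others, in the overall mean and in the gap between imprinting and other regions. Chance marks about 1 in 20 such groups, and 6 combinations of group and measure were searched, not all of them. Among the 10 B3B columns without a final N, B3B_8 had a mean of 42.2% over the kept regions, against 18.3% for the next line. Among the 9 B3B columns with a final N, the imprinting regions of B3B_15 lay 12.8 points below its other regions, a value of -12.8, against -3.23 for the next lowest line. B3B_15 had 6.87% at the imprinting regions and 19.7% at the others.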

How the results depend on the processing

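The difference in line means stayed past no threshold under 50 alternatives, from -6.65 points in columns without a final N to -0.0220 without B3B_8 and B3B_44; leaving out single lines gave -3.87 to -1.54, with -1.54 without B3B_8 and -1.65 without B3B_44. The difference in spread changed sign without the high lines B3B_8 and B3B_44, to 1.59 (p = 0.283), and ran from -1.39 to 0.415 on leaving out single lines. The difference between prefixes in imprinting minus other regions stayed positive in these alternatives. It ran from 0.496 in columns without a final N to 7.71 in columns with it, and from 4.48 to 5.75 without single lines. The lines with 2 titles taken alone were not among these alternatives. There imprinting minus other regions had the opposite order, 1.49 points in B3A (n = 4) and 4.12 in B3B (n = 3). The raw fit called 0 regions throughout. The centred fit called 5 without the lines with 2 titles, all higher in B3A. The covariate fit called 19 without those lines, 2 with all 4 prefixes in the fit (both at Nap1l5), and 0 to 7 without single lines (4 without B3A_37, 7 without B3A_44 or B3B_26); the cause was not tested. With the final N as a covariate it called 0, with 75 regions at an unadjusted p under 0.05. Fitting CpGs in place of regions called 0 CpGs in each fit. No paired analysis was possible because each line number names a line of its own prefix and nothing in the labels pairs lines across prefixes. Read depth is unknown, so noise from few reads cannot be told apart from differences between lines.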
